A study of Mus musculus with 23 samples.

Results

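Olfactory receptor genes that lie next to a peak of H3K9me3 or of R-loops in mouse CD4+ naive T cells are described here. The group holds the protein-coding genes named Olfr followed by a number, in RefSeq's annotation of mm10 (GRCm38.p6), that have a peak of the H3K9me3 or the R-loop list within 3000 bp of either end of the gene. Of 1106 olfactory receptor genes, among 21887 protein-coding genes on the assembled chromosomes, 58 met this rule. The H3K9me3 list chose 50 of them and the R-loop list chose 8, and no gene was chosen by both. Of all protein-coding genes, 648 had an H3K9me3 peak at an end, 138 an R-loop peak and 769 either, so few had both. The lack of such a gene among the receptors is near that background and says little about them. The peaks themselves chose the genes, so counts of genes with a peak are given as a description, with no test.

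The data are CUT&Tag profiles, made by an antibody-guided transposase that inserts sequencing adapters near the antibody's target. Spleen and pLN gave the CD4+ naive T cells, taken from wild-type (WT) mice or from mice with a knockout (KO) of DDX55, a DEAD-box RNA helicase. Of the 23 samples, 4 name the H3K9me3 list, 4 the RNA polymerase II list and 4 the DDX55 list, in each case 2 WT and 2 KO. The R-loop list is named by 8 samples, 4 WT and 4 KO, and 4 of these 8 received 20 U of RNase H, an enzyme that degrades the RNA of RNA:DNA hybrids. The other 3 samples, 2 with an HA-tag antibody and 1 with IgG, all WT, name no list. The sources used here do not give the strain and age of the mice, how the knockout was made, or whether replicate samples are different mice. Samples of both genotypes name the same list, and how their peaks were combined is not stated. Whether the libraries treated with RNase H entered the R-loop list is not stated either, so an R-loop peak here may or may not rest on treated libraries. The lists hold positions alone, so a gene has a peak or has none, with no value per sample, no replicate error and no depth. Nothing below measures an effect of the knockout or of RNase H.

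H3K9me3 is the histone mark of constitutive heterochromatin, laid down by enzymes such as SETDB1 and SUV39H1 and bound by HP1 proteins. Olfactory receptors are G protein-coupled receptors, most of them coded in a single exon, and their genes stand in tandem clusters on many chromosomes. An olfactory sensory neuron expresses a single allele of a single receptor gene, and the other receptor genes are held in heterochromatin carrying H3K9me3. An R-loop is an RNA:DNA hybrid with the displaced DNA strand, detected here with the S9.6 antibody.

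The cell type was checked with the RNA polymerase II list, on genes that mark it. The H3K9me3, R-loop and DDX55 lists were not checked in this way. RNA polymerase II had a gene-end peak, by the same 3000 bp rule, at 8 of 10 markers of CD4+ naive T cells, Cd4, Cd3e, Ccr7 and Il7r among them, against 33.5% of all protein-coding genes. For other cell types the count was 1 of 4 markers of B cells (Cd79a), 1 of 4 of cytotoxic and NK cells (Prf1) and 1 of 4 of myeloid cells (Cd68). Of 5 genes of the olfactory sensory neuron, Adcy3 had such a peak and Omp, Gnal, Cnga2 and Stoml3 had none. On the assembled chromosomes the lists held 16474 H3K9me3 peaks (median width 606 bp, 6.09 per Mb), 1473 R-loop peaks (524 bp, 0.545 per Mb), 10898 RNA polymerase II peaks (638 bp, 4.03 per Mb) and 215 DDX55 peaks (432 bp, 0.0795 per Mb).

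The share of olfactory receptors with an H3K9me3 peak at an end was 4.52% (50 of 1106), beside 2.96% of all protein-coding genes (648 of 21887). For R-loops it was 0.723% (8 of 1106), beside 0.631% of all protein-coding genes (138). For either list, 3.51% of protein-coding genes (769) qualified. These shares are what the rule selects on and are read no further. The median length searched around the ends of a gene was 6951 bp both for the 50 H3K9me3 genes and for the 1048 receptors without a peak of either kind. Spans above 2000 bp, which give a longer search of up to 12002 bp, made up 24.0% of the former and 13.0% of the latter. The part of gene size in the choice of genes was not tested.

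The peaks met the promoter window of 4 of the 50 genes of the group for which RefSeq gave one, the window being the 300 bases from 250 before to 50 after a start site given by RefSeq. That site was the 5′ end of the gene span for 45 of the 50. For Olfr196, Olfr1095, Olfr1109, Olfr1234 and Olfr1349 it lay 2624 to 10219 bp inside the span, whose ends are what upstream and downstream refer to below. In every window printed below, ATG, the letters of a start codon, stands at the site. The site may therefore be the start of the coding sequence, and whether transcription begins there was not tested. Olfr1349 and Olfr304, on chromosome 7, were met by H3K9me3 peaks, and Olfr525 and Olfr531, also on chromosome 7, by R-loop peaks. These windows are printed because they are the only annotated starts of these genes, among those with a window, that a peak reached. Olfr527 and Olfr532 are added because their windows pair with the R-loop windows in sequence, and they were chosen after the values were seen. Capitals mark the bases inside the peak, all sequences are from RefSeq, GRCm38.p6, and each is given 5′ to 3′ on the strand of its gene. The windows are chr7:6515378-6515677 (minus strand, Olfr1349), chr7:86386609-86386908 (minus, Olfr304), chr7:140322451-140322750 (plus, Olfr525), chr7:140335614-140335913 (plus, Olfr527), chr7:140400995-140401294 (minus, Olfr531) and chr7:140419722-140420021 (minus, Olfr532).
Olfr1349: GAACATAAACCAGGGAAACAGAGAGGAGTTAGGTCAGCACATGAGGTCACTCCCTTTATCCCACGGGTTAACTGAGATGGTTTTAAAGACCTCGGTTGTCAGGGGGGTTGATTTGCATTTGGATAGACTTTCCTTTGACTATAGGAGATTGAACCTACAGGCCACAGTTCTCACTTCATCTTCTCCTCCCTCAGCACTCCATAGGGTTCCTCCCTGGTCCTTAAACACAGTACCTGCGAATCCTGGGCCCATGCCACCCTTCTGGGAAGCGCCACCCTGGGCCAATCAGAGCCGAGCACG
Olfr304: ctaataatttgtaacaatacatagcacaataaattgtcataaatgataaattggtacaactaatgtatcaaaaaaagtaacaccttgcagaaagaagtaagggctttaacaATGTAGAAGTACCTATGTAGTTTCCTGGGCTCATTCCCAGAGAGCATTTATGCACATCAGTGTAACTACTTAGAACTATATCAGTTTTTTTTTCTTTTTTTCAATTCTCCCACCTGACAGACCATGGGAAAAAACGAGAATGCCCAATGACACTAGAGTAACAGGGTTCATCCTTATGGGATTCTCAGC
Olfr525: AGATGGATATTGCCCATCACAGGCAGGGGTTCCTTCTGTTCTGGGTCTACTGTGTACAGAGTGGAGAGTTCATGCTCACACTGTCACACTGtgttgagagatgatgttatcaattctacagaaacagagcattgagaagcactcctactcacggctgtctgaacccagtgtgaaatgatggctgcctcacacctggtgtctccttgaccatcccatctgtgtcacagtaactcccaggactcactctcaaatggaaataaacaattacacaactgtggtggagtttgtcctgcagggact
Olfr527: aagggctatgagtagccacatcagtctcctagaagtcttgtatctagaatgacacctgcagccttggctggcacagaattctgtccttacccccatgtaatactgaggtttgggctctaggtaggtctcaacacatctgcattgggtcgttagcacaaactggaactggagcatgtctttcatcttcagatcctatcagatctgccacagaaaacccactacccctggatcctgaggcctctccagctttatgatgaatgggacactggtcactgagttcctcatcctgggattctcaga
Olfr531: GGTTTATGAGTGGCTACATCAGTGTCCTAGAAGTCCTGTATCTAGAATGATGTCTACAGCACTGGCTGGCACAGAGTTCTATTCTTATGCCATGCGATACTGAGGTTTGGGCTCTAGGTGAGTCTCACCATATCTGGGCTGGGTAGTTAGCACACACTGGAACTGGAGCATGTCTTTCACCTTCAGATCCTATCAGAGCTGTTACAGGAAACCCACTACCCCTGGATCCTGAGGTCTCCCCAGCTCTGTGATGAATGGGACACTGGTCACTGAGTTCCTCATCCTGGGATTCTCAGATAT
Olfr532: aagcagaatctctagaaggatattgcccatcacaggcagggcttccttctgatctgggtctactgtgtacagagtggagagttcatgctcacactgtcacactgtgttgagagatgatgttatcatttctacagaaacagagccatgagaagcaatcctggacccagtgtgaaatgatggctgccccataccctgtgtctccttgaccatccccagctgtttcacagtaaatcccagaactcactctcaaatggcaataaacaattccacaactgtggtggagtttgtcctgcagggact
The peak at Olfr1349 took in all 300 bases of its window, which lies 4928 bp inside the annotated span by its start site, and the peak at Olfr304 took in 189, from the 3′ side. The R-loop peak at Olfr525 ended inside the window and took in 91 bases at its 5′ side, whereas the peak at Olfr531 took in all 300. No R-loop peak touched the windows of Olfr527 and Olfr532. Among all 32851 promoter windows, an H3K9me3 peak met 143 (0.435%) and an R-loop peak 53 (0.161%), and among the 944 windows of olfactory receptors each list met 2. RNA polymerase II peaks met 6061 of all windows and none of the 944. The window of a receptor may miss the start of its transcription, so this count does not tell what lies there.

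By chromosome, 24 of the 58 genes were on chromosome 2 (of 286 olfactory receptors there), 17 on chromosome 7 (of 237), 5 on chromosome 10 (of 68), 4 on chromosome 9 (of 129), 4 on chromosome 16 (of 36), 2 on chromosome 17 (of 51), and 1 each on chromosomes 6 (of 28) and 11 (of 83). The remaining 9 of the 17 chromosomes with olfactory receptors held none of the 58. The most gene-rich of these were chromosome 19 with 63 receptors, chromosome 14 with 39, chromosome 1 with 27 and chromosome 4 with 24.

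Receptor genes were joined to a cluster where neighbours lay within 1 Mb, which gave 50 clusters, 10 of them single genes. The 58 genes fell in 14 clusters, 13 through H3K9me3 and 1 through R-loops, and these 14 clusters also held 743 receptor genes without a peak at an end. The other 36 clusters, with 305 genes, held none. Neither peak type therefore took up a whole cluster: the share of genes with a peak ran from 0.794% to 42.1% over the 14 clusters.

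**Figure D1:**
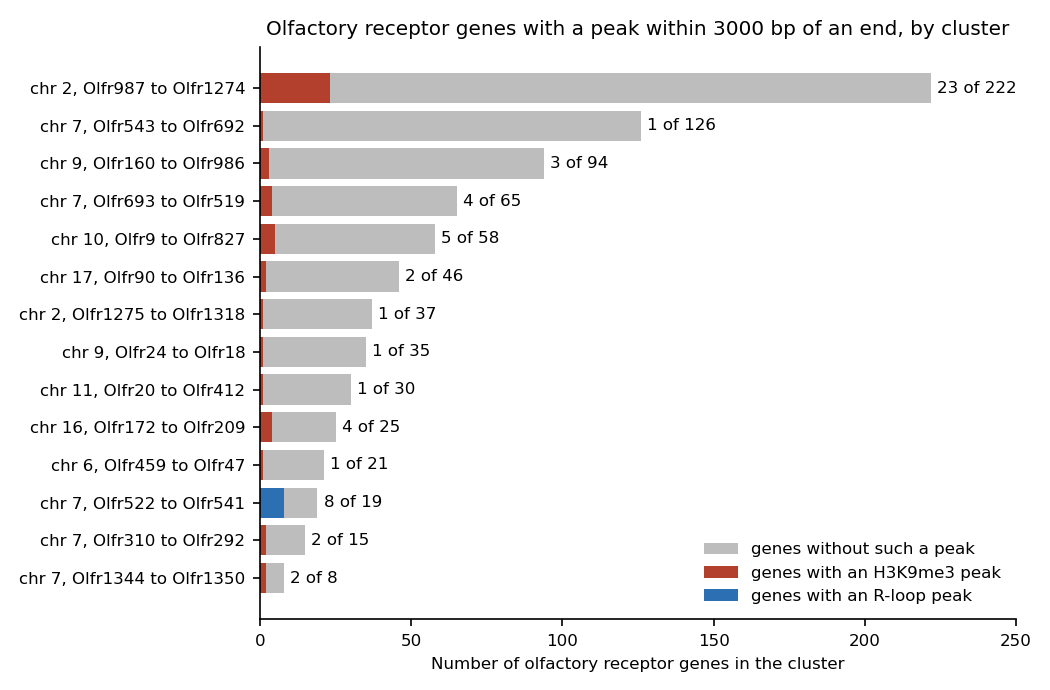
Olfactory receptor genes (horizontal axis, number of genes) in each of the 14 clusters that hold a gene with a peak within 3000 bp of an end; red is genes with an H3K9me3 peak, blue genes with an R-loop peak and grey the cluster's other receptors. The chromosome 2 cluster of 222 genes holds 23 H3K9me3 genes, and the only blue is in the chromosome 7 cluster of 19 genes, with 8.

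The largest set lay on chromosome 2 in a cluster of 5.07 Mb, from Olfr987 to Olfr1274 (chr2:85330967-90401674), where 23 of 222 receptors (10.4%) had an H3K9me3 peak at an end. In chromosome order these were Olfr154, Olfr1020, Olfr1030, Olfr1076, Olfr1095, Olfr1105, Olfr1109, Olfr1116, Olfr1135, Olfr1154, Olfr1155, Olfr73, Olfr1166, Olfr1173, Olfr1179, Olfr1182, Olfr1206, Olfr1213, Olfr1220, Olfr1221, Olfr1233, Olfr1234 and Olfr1241. The cluster held 98 H3K9me3 peaks in all, 19.3 per Mb, 1 R-loop peak and no peak of RNA polymerase II. The peaks were not spread evenly along it. In steps of 1 Mb from position 85000001, it held 8, 14, 29, 28, 18 and 1 peaks beside 30, 49, 47, 40, 42 and 14 receptor genes, of which 3, 2, 6, 7, 5 and 0 had a peak at an end. The genes with a peak and the peaks were thus most numerous from 87000001 to 89000000 and scarce at the cluster's distal end. The second chromosome 2 cluster, Olfr1275 to Olfr1318 (chr2:111230853-112157007), was denser in peaks, with 24 in 0.926 Mb (25.7 per Mb), yet 1 of its 37 genes, Olfr1285, had one at an end.

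On chromosome 7, H3K9me3 peaks marked 9 genes in 4 clusters. Olfr1348 and Olfr1349 were 2 of 8 receptors in the cluster at chr7:6439902-6570919, which held 4 peaks. Olfr304 and Olfr294 were 2 of 15 at chr7:86268730-86695384, with 11 peaks (25.4 per Mb). Olfr479, Olfr497, Olfr506 and Olfr512 were 4 of 65 at chr7:106677534-108894405, with 21 peaks (9.45 per Mb). The cluster at chr7:102476773-105369317, from Olfr543 to Olfr692, is the site of the class I receptors, an evolutionarily older class of olfactory receptors that resemble those of fish. It held 15 H3K9me3 peaks (5.18 per Mb), below the 6.09 per Mb of the assembled chromosomes, and Olfr585 was its only gene of 126 with a peak at an end. Its median distance from a receptor without a peak to the nearest H3K9me3 peak was 151 kb, against 23.2 kb in the large chromosome 2 cluster.

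The remaining H3K9me3 genes were spread over 7 clusters. Chromosome 10 had Olfr781, Olfr796, Olfr805, Olfr813 and Olfr818 (5 of 58 in the cluster, 19 peaks, 15.5 per Mb). Chromosome 16 had Olfr175, Olfr194, Olfr196 and Olfr204 (4 of 25, 15 peaks, 24.7 per Mb). Chromosome 9 had Olfr25, Olfr938 and Olfr951 in 1 cluster (3 of 94, 28 peaks, 11.3 per Mb) and Olfr834 in another (1 of 35, 17 peaks, 10.7 per Mb). Chromosome 17 had Olfr122 and Olfr131 (2 of 46, 13 peaks, 10.3 per Mb). Olfr401 on chromosome 11 (1 of 30, 4 peaks) and Olfr38 on chromosome 6 (1 of 21, 6 peaks) stood alone in clusters with 3.92 and 4.08 peaks per Mb, the lowest densities of the 13.

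Across all 50 clusters, which span 35.1 Mb with their flanking windows, the H3K9me3 list placed 324 peaks, or 9.23 per Mb. Of these, 51 touched the window of a gene end and 273 lay elsewhere in the clusters. By their midpoints, 46 peaks (14.2%) fell inside the windows around gene ends, which make up 23.4% of the cluster length, and 15 (4.63%) fell inside gene spans, which make up 6.01%. In the 13 clusters with H3K9me3 genes taken alone, the midpoints in windows were 16.7% of 275 peaks and the windows 27.0% of the length. The H3K9me3 peaks of the receptor clusters were therefore mostly between the protein-coding receptor genes, and the 50 genes are those that such a peak came near. Other genes of the clusters, receptor pseudogenes among them, were left out of this count. The 36 clusters without any of the 58 genes had 49 peaks, 3.71 per Mb, held by 11 of them. These clusters were set apart by having no peak at a gene end, so their lower density follows in part from the rule.

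The distance from each receptor to the nearest H3K9me3 peak showed no pile-up at the gene ends. Counted over steps of 1000 bp from 0 to 10 kb, 14, 18, 18, 23, 19, 18, 17, 24, 15 and 18 of the 1106 genes had their nearest peak at that distance from an end. The 50 genes within 3000 bp were followed by 60 genes beyond 3000 and up to 6000 bp and 74 beyond 6000 and up to 10000 bp, and 922 lay farther off. The median over the family was 46.7 kb. Just inside the limit were Olfr73 at 2796 bp, Olfr512 at 2850 bp and Olfr1206 at 2879 bp, and just outside it Olfr295 at 3013 bp, Olfr206 at 3086 bp and Olfr1205 at 3190 bp. Another 2 genes, Olfr183 and Olfr1280, had H3K9me3 peaks deep inside spans of 71199 and 60182 bp but none at an end, and are not counted.

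**Figure D2:**
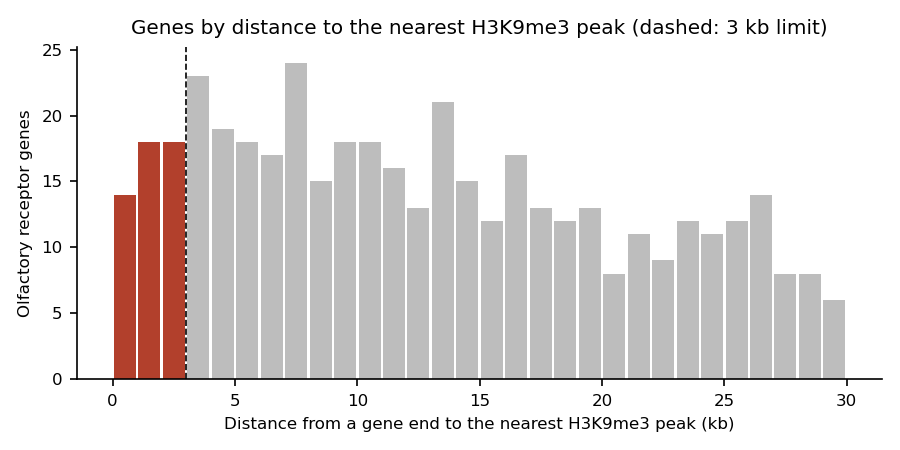
Number of olfactory receptor genes (vertical axis) by distance from a gene end to the nearest H3K9me3 peak (horizontal axis, kb, in steps of 1 kb, shown up to 30 kb); red bars are the genes within 3000 bp and the dashed line is that limit. The bars from 0 to 10 kb lie between 14 and 24 genes, with no step at the limit.

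Of the 50 H3K9me3 genes, 12 had a peak inside the gene span and 38 had peaks beside it alone. Over the whole family, 14 of 1106 receptors (1.27%) had an H3K9me3 peak in the span, beside 5.40% of all protein-coding genes. Receptor spans had a median of 950 bp, a longer span has more room for a peak, and span length was not allowed for. The 2 shares are therefore not comparable per base. The 39 peaks beside a gene lay 261 to 2879 bp from it, with a median of 1960 bp. The nearest was 261 bp downstream of Olfr1166. For genes with a strand in the sequences used here, 22 peaks were downstream of the gene and 10 upstream, and the remaining 7 were beside genes whose strand was not used. Olfr1109 was the only gene of the 50 with 2 H3K9me3 peaks, 1 in the span and 1 downstream. No peak was shared by 2 genes of the group, none met a peak of another list, and 1 met another gene, a pseudogene named Gm8543 beside Olfr938. How many peaks of the whole H3K9me3 list meet another list was not counted, so the lack of such peaks here is read no further.

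The 12 genes with a peak in the span were Olfr796, Olfr196, Olfr122, Olfr1030, Olfr1095, Olfr1109, Olfr38, Olfr1348, Olfr1349, Olfr304, Olfr294 and Olfr497. Their peaks covered 7.25% to 50.2% of the span, with a median of 25.1%. Olfr497 was the only H3K9me3 gene covered over at least 50% of its length: its peak, chr7:108422818-108423291, was 474 bp wide in a span of 945 bp. Olfr304 (39.1%), Olfr294 (38.4%) and Olfr796 (32.5%) followed. At the low end, the peak of Olfr1030 covered 7.25% of a span of 5487 bp, and that of Olfr1095 9.38% of 3551 bp. Spans were longer in this set, with a median of 2279.5 bp and 6 of 12 genes above 2000 bp, than among the 38 genes with a peak beside them alone, with a median of 945 bp and 6 of 38 above 2000 bp. A longer span offers more room for a peak, and that part in the difference was not tested.

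**Figure D3:**
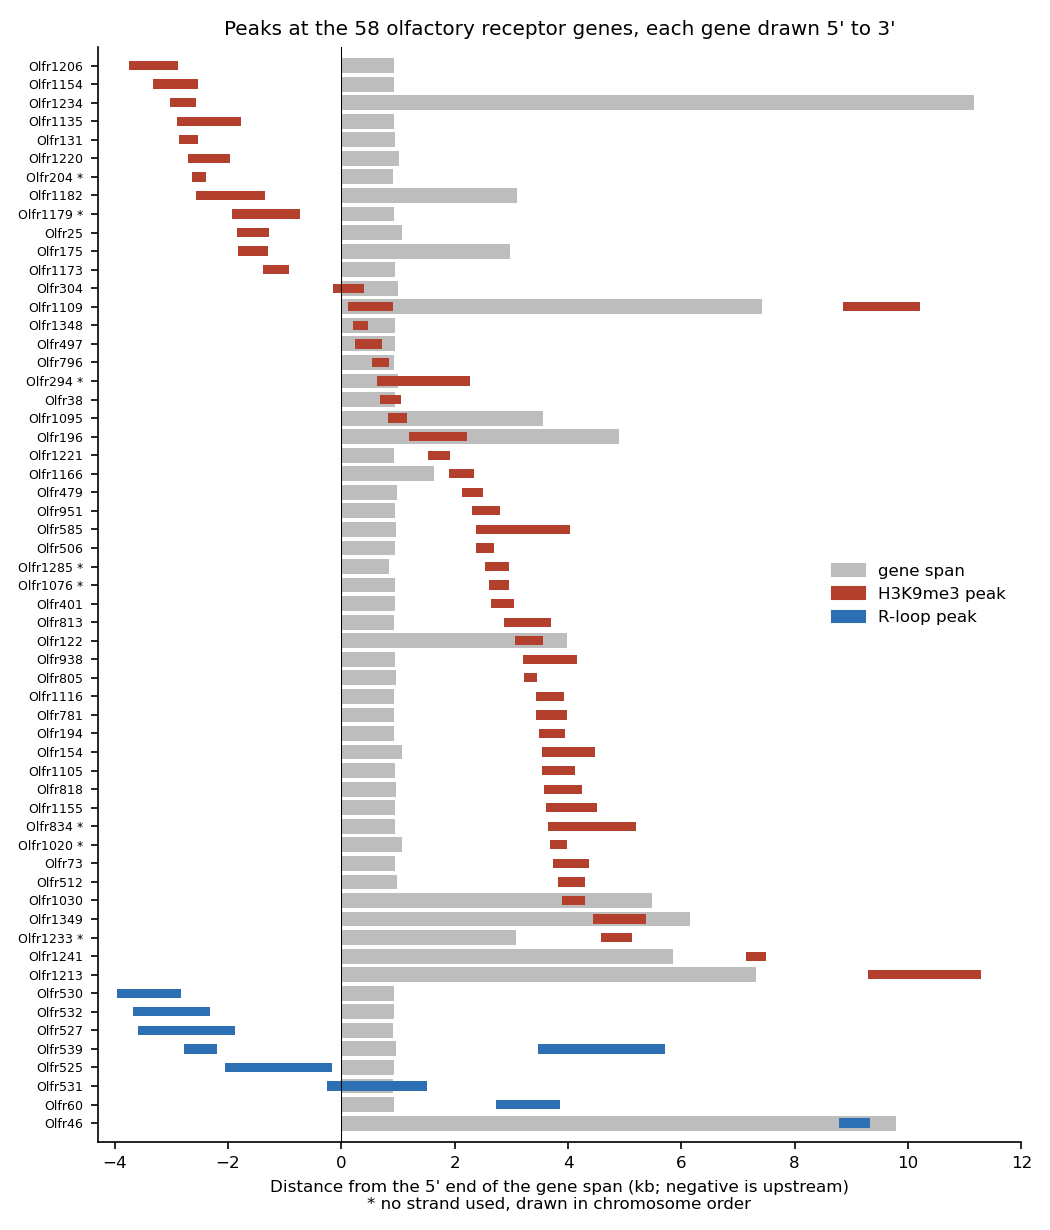
Position of every peak (coloured bars) against the span of its gene (grey bars), in kb from the 5′ end of the span, for the 58 genes ordered by peak position within each list; an asterisk marks genes whose strand was not used, drawn in chromosome order. In 12 of 50 H3K9me3 genes and 2 of 8 R-loop genes a coloured bar meets the grey one.

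The median H3K9me3 peak at receptors was somewhat narrower than that of the list, within the list's quartiles of 407 and 1023 bp, and the difference was not tested. The 51 peaks were 221 to 1983 bp wide, with a median of 521 bp, against 606 bp for the list and 564 bp for the 273 other H3K9me3 peaks of the clusters. Of the 51, 20 were wider than the list's median and 9 (17.6%) reached 1000 bp, compared with 25.8% of the list and 26.0% of the other cluster peaks. The narrowest, 221 bp, was downstream of Olfr805. Peaks in spans had a median width of 482 bp and peaks beside genes 545 bp.

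The widest H3K9me3 peak at a receptor was that of Olfr1213 on chromosome 2 (chr2:88968986-88970968), 1983 bp wide and 1986 bp downstream of the gene. It ranked 754th by width among the 16474 peaks of its list. Next came Olfr585, the single gene of the class I cluster, with a peak of 1657 bp located 1425 bp downstream (chr7:103100124-103101780). Olfr294 had a peak of 1647 bp that began inside the span and ran beyond the end of it. The peaks of Olfr834 (1547 bp) and Olfr1109 (1350 bp) lay beside their genes, as did those of Olfr1182 (1213 bp), Olfr1179 (1193 bp) and Olfr1135 (1115 bp). The widest 10 were completed by Olfr196 (1033 bp, in the span) and Olfr938 (946 bp, downstream). Of these 10, then, 2 had their widest peak in the gene, and 5 (Olfr1213, Olfr1109, Olfr1182, Olfr1179 and Olfr1135) belonged to the large chromosome 2 cluster.

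**Figure D4:**
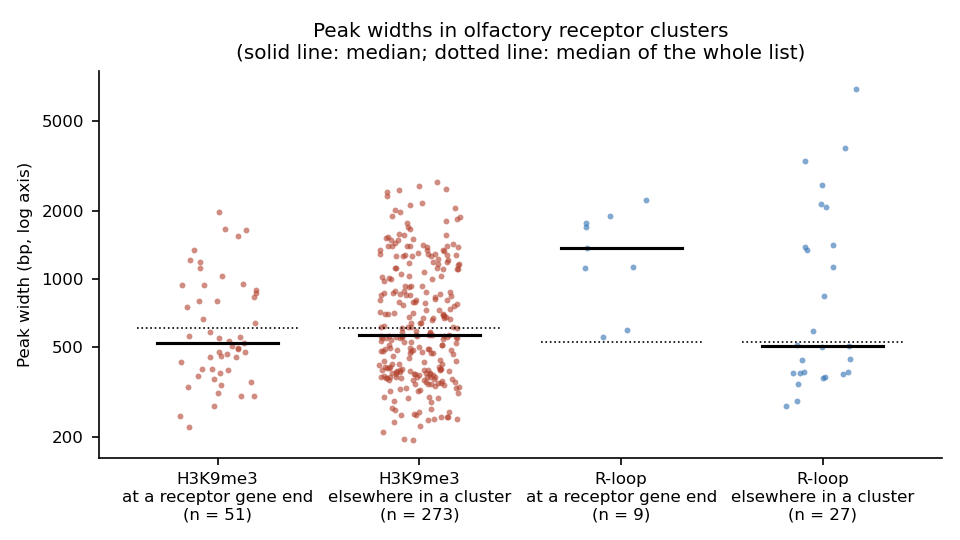
Peak width (bp, log scale) of the H3K9me3 peaks (red) and R-loop peaks (blue) at the ends of the 58 genes and elsewhere in the receptor clusters, 1 point per peak; solid lines are medians and dotted lines the median of the whole list. The H3K9me3 peaks at genes have a median of 521 bp against 606 bp for the list, and the R-loop peaks a median of 1371 bp against 524 bp.

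Marked H3K9me3 genes were mostly single genes among cluster-mates without a peak. In gene order along the clusters, the 50 genes formed 46 runs, of which 42 were a single gene and 4 were pairs of neighbours: Olfr1154 with Olfr1155, Olfr1220 with Olfr1221, Olfr1233 with Olfr1234, and Olfr1348 with Olfr1349. Each gene of a pair had a peak of its own. The 92 places flanking these runs were taken by receptors without a peak at an end, 3.01 to 76.5 kb from the nearest H3K9me3 peak, with a median of 13.7 kb. All 732 unmarked receptors of the 13 clusters had a median distance of 35.6 kb, with 115 within 10 kb and 182 beyond 100 kb. Receptors of clusters holding none of the 58 genes had a median distance of 157 kb. The peaks themselves formed these groups, so the order of the medians follows in part from the rule and is read no further. In the cluster of Olfr304 and Olfr294 the 13 unmarked genes lay closest, at a median of 8.12 kb, and in the chromosome 6 cluster of Olfr38 the 20 unmarked genes lay farthest, at 159 kb.

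All 8 R-loop genes lay in a single cluster near the distal end of chromosome 7, from Olfr522 to Olfr541 (chr7:140162010-140705191). It has 19 receptors, so 42.1% of its genes had an R-loop peak at an end. The cluster held 23 R-loop peaks, 41.9 per Mb, against 0.545 per Mb over the assembled chromosomes and 0.376 per Mb in the other 49 clusters, where 13 peaks fell in 8 clusters. It held no H3K9me3 peak and no DDX55 peak. The 8 genes were Olfr525, Olfr527, Olfr60, Olfr530, Olfr531, Olfr532, Olfr46 and Olfr539. The first 6 are consecutive receptors, whereas Olfr46 and Olfr539 each stand between unmarked neighbours.

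The R-loop peaks covered or neared these genes in different ways. Olfr531 (chr7:140400130-140401044) was the only gene of the 58 covered whole, by a peak of 1761 bp (chr7:140399541-140401301) that also took in its promoter window. A peak of 1895 bp ended 160 bp upstream of Olfr525 (chr7:140322701-140323630). The peak of Olfr527 (1702 bp) was 1880 bp upstream, that of Olfr532 (1371 bp) 2314 bp upstream and that of Olfr530 (1117 bp) 2834 bp upstream. Upstream placement was thus the most frequent, with 5 of 9 peaks, against 2 downstream and 2 in spans. Those were the only receptors of the family with an R-loop peak in the span, 2 of 1106 (0.181%), beside 1.59% of all protein-coding genes. Span length was not allowed for in these shares. Downstream of Olfr60 by 1796 bp, a peak of 1131 bp met the pseudogene Olfr528-ps1. Olfr46, with the longest span of the 8 (9785 bp), had a peak of 551 bp over 5.63% of it. Olfr539 had 2 peaks, of 592 bp located 2192 bp upstream and of 2248 bp located 2512 bp downstream, and both fall in the annotated long non-coding RNA gene Gm39112.

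These 9 peaks were wide for their list. They were 551 to 2248 bp, with a median of 1371 bp, all 9 above the list's median of 524 bp, and 7 of 9 (77.8%) reached 1000 bp, against 24.4% of the list. The other 14 R-loop peaks of the cluster, away from receptor ends, had a like median of 1377.5 bp. The widest of the cluster, 6958 bp, lay over the pseudogene Olfr534-ps1 and was 9th by width in the whole list. A peak of 3818 bp met the pseudogene Gm6376, and 1 of 3332 bp met no gene. Of the 23 peaks, 2 met a receptor of the group, 4 a pseudogene, 3 the protein-coding gene 5830411N06Rik, 3 Gm39112, and 11 no annotated gene. By midpoint, 7 of 23 peaks (30.4%) lay in the windows around receptor ends, which make up 27.3% of the cluster, so the peaks were about as frequent there as elsewhere in it.

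**Figure D5:**
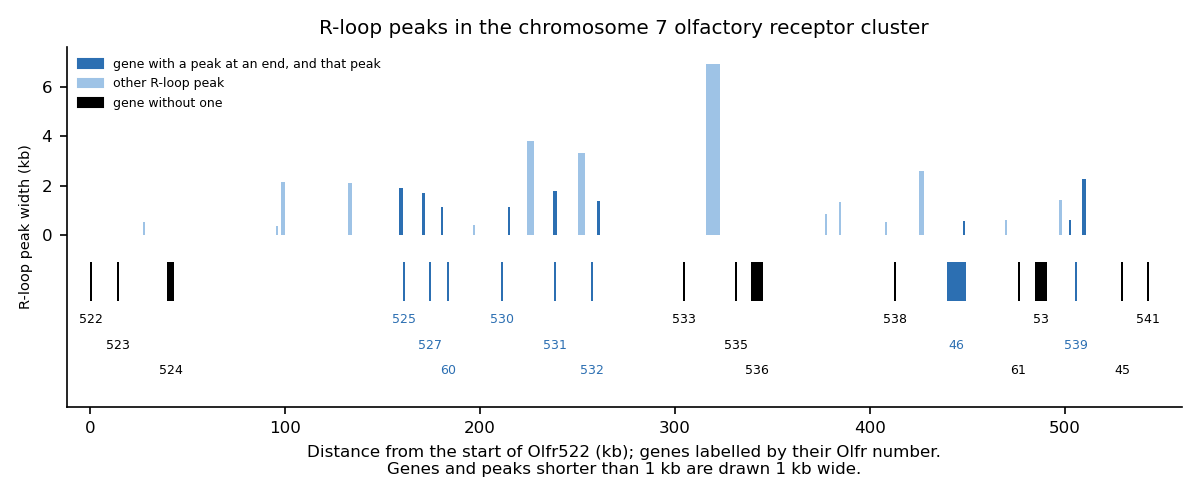
R-loop peaks (bars above 0, vertical axis the peak width in kb) over the 19 receptors of the distal chromosome 7 cluster, in kb from the start of Olfr522; dark blue marks the 8 genes with a peak at an end and those 9 peaks, light blue the other 14 peaks and black the 11 genes without one. Peaks run along most of the cluster, 2 of the dark blue ones meeting a gene.

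The 11 unmarked receptors of this cluster lay 3.47 to 31.2 kb from the nearest R-loop peak, with a median of 11.6 kb. The run of 6 was bounded by Olfr524 at 11624 bp and Olfr533 at 10966 bp. Olfr46 stood between Olfr538 at 3472 bp and Olfr61 at 5809 bp, and Olfr539 between Olfr53 at 5934 bp and Olfr45 at 17877 bp. The genes just inside the limit were Olfr539 (2192 bp), Olfr532 (2314 bp) and Olfr530 (2834 bp). Just outside it were Olfr538 of the same cluster, Olfr487 of another chromosome 7 cluster at 3762 bp and Olfr724 of chromosome 14 at 3918 bp. No receptor outside this cluster was therefore within 3000 bp of an R-loop peak, and of the 6 receptors beyond 3000 and up to 6000 bp from one, 3 (Olfr538, Olfr61 and Olfr53) were in this cluster.

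The promoter windows of the first 6 R-loop genes held a mirrored pair of copies. Olfr525 and Olfr532, the first and last of the run, had windows 85.7% identical over a global alignment, as did Olfr527 and Olfr531. In each pair the genes are on opposite strands, plus for Olfr525 and Olfr527 and minus for Olfr531 and Olfr532. The closest window of any other receptor to these 4 was that of Olfr328, at 53.3%. Among the 8 R-loop genes, the 22 pairs that involve Olfr60, Olfr530, Olfr46 or Olfr539 were 44.7% to 50.3% identical. For each of Olfr60, Olfr530, Olfr46 and Olfr539, the closest receptor window was that of an unmarked receptor of the cluster. These were Olfr61, Olfr533, Olfr53 and Olfr45 in turn, each more than 50.3% identical, with 54.3% for Olfr46 and 73.7% for Olfr530. Similar windows were therefore not confined to genes with a peak. The windows that were 85.7% identical did not share the placement of the peaks. All 300 bases were inside a peak at Olfr531 and 0 at Olfr527, and 91 were inside at Olfr525 and 0 at Olfr532. The sources used here do not say how reads that match both copies were placed.

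In base composition the R-loop windows resembled the cluster rather than standing apart in it. The median GC content was 45.7% for the 8 R-loop genes, 43.3% for the 10 windows of unmarked receptors of the cluster, 35.0% for all 944 receptor windows and 52.7% for all 32851 windows. The 42 H3K9me3 genes with a window had a median of 33.0%, near the family's, and the window of Olfr1349 had 51.7%, the highest of the group. The median number of CpG sites per window was 1 in the family, in the H3K9me3 genes and in the R-loop genes, against 7 for all windows.

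Motifs were searched as exact letters on both strands of these windows, a match being a description and not a site. TAATTA, a core read by homeodomain factors such as LHX2, was in 5 of the 50 windows of the group (10.0%), in 18.6% of receptor windows and in 5.29% of all windows. TATAAA, the letters of the TATA box, was in 23 of 50 (46.0%), in 41.2% of receptor windows and in 13.6% of all windows. Its distance from a start of transcription is not known here, since the windows may be set on coding starts. The palindromic motif of EBF factors was in 0 of 50, in 0.530% of receptor windows and in 0.904% of all windows. TAATTA and TATAAA are made of A and T alone, and median GC content was 35.0% in receptor windows and 52.7% in all windows. Base composition was not allowed for in any of these shares. TAATTA and the EBF motif read the same on both strands, and matches of different motifs may share bases at their edges. None of the 6 printed windows held TAATTA or TATAAA.

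Closest copies were also sought by promoter. The closest other receptor window was 60.0% identical in the median H3K9me3 gene, 80.3% in the median R-loop gene and 57.0% over the family. A copy at 90% or more was found for 1 of the 50 windows of the group (2%) and 57 of the 944 receptor windows (6.04%). Among unmarked cluster-mates it was found for 34 of 630 windows (5.40%), and the difference was not tested. The only gene of the group with such a copy was Olfr1173, whose window was 98.3% identical to that of Olfr1168 in the same cluster. The H3K9me3 peak of Olfr1173, 453 bp wide and 923 bp upstream of the gene, lay outside this window, and identity was not measured at the peak.

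RNA polymerase II was absent from the list at every one of these genes: 0 of 58 had a peak within 3000 bp of an end. The nearest RNA polymerase II peak was 129 to 2944 kb away, with a median of 771 kb for the 58 genes, 1091 kb for the H3K9me3 genes and 193 kb for the R-loop genes. The median was 446 kb over the receptor family and 25.5 kb over all protein-coding genes. A single receptor had an RNA polymerase II peak at an end, Olfr9 on chromosome 10 (chr10:128989914-128990852), whose peak was 1402 bp wide (chr10:128990088-128991489) and which had neither H3K9me3 nor R-loop peaks there. The clusters were not without RNA polymerase II between their receptors, with 67 peaks, 1.91 per Mb, in all 50. DDX55 was found at 0 of 58 genes and in 0 of 50 clusters, beside 0.256% of all protein-coding genes with a DDX55 peak at an end (56). A group of 58 genes is thus near the background, and the 0 says little about these genes. The nearest DDX55 peak to any of the 58 was 971 kb away.

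Of 19 genes that carry the odorant signal downstream of the receptors, 0 had an H3K9me3 or R-loop peak at an end, where 3.51% of all protein-coding genes had one, so that a list of this size is near the background. Inside its span, away from the ends, Pde1c, a phosphodiesterase gene, held 6 H3K9me3 peaks and Ano2, a chloride channel gene, held 1. RNA polymerase II peaks stood at an end of 5 of the 19, beside 33.5% of all protein-coding genes, among which are Adcy3, the adenylyl cyclase, Cnga4, a subunit of the cyclic nucleotide-gated channel, Ric8b, a chaperone and exchange factor for the olfactory G protein, and Gnb1, a G protein beta subunit. Of 27 genes with a part in receptor choice or silencing, 0 had an H3K9me3 or R-loop peak at an end, again near the background of 3.51%, 14 had one of RNA polymerase II (33.5% of all protein-coding genes) and 1, Cbx5, also one of DDX55 (0.256%). Those with RNA polymerase II at an end included the heterochromatin genes Cbx3 (1659 bp) and Cbx5 (1646 bp), which encode HP1 proteins, Trim28 (1359 bp), a corepressor that recruits SETDB1, Lbr (1254 bp), the lamin B receptor, and the methyltransferase genes Suv39h1 and Suv39h2. Those without it at an end included the HP1 gene Cbx1, the methyltransferase genes Setdb1 and Ehmt1, and Lhx2, Ldb1, Emx2 and Ebf1 to Ebf4, factors of receptor enhancers and promoters. Ldb1 held 2 RNA polymerase II peaks elsewhere in its span. Both lists were drawn up with results of these data known, and a peak at a gene end does not measure its expression.

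Among other chemosensory receptor families, an H3K9me3 peak lay at an end of 16 of 230 Vmn1r genes (6.96%) and 18 of 123 Vmn2r genes (14.6%), the vomeronasal receptors, and of 3 of 38 taste receptor genes (7.89%). The share of all protein-coding genes was 2.96%. It lay in the span in 5 of the 16 Vmn1r genes and 6 of the 18 Vmn2r genes, beside 12 of 50 olfactory receptors. Median peak widths were 726.5 bp for Vmn1r and 737 bp for Vmn2r, wider than the 521 bp of the olfactory receptors. Trace amine receptors (Taar, 15 genes), formyl peptide receptors (Fpr, 7) and the Ms4a family (21) had no H3K9me3 or R-loop peak at an end. With 3.51% of all protein-coding genes having one, families of these sizes are near the background. Among all of these other families, 1 Vmn2r gene had an R-loop peak at an end, beside 0.631% of all protein-coding genes. Vmn2r genes are longer, with a median span of 24544 bp against 950 bp for olfactory receptors, and no test of the difference between families was made.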

How the data were processed

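CUT&Tag libraries of mouse CD4+ naive T cells were read by the authors into 4 deposited peak lists, whose values are genomic coordinates (chromosome, start and end), a unit other than counts or signal, with no score or depth. The depth per sample is therefore unknown. Per the submitters' processing notes, the build was mm10 and the tools were MACS3 3.0.0b1, ChIPseeker 1.30.3, Bowtie2 2.5.0, fastp 0.12.4 and SAMtools 1.15.1. The peak threshold, the treatment of reads with several matches and the way samples were combined in a list are not given in the sources used here.

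From these lists, peaks were matched to RefSeq genes (GRCm38.p6, by symbol) with Python 3.11.15, pandas 2.3.3 and numpy 2.4.6. A peak counted for a gene end when at least 1 bp lay within 3000 bp of it, and receptors within 1 Mb of each other formed a cluster. Starts were turned to 1-based positions. RefSeq promoter windows were matched for 50 of the 58 genes, by symbol, and strand was taken from them; identity is 100 minus the percent of 300 bases in the edit distance of a global alignment (edlib). The matching functions were tested on simulated data. Unplaced scaffolds were left out.

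The genes, the lists and the rules were chosen with earlier results of these data known. Any gene of the group could be named; described singly are those with both peaks or with RNA polymerase II or DDX55, the 10 widest per list, those covered by 50% or more, the 3 nearest on each side of the limit and the neighbours of runs. Alternatives varied the window, the overlap, peak width, peaks met by other lists, joining of peaks, the gene set and the cluster gap. No test was made, since the lists hold no value per sample and the peaks chose the genes.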

Additional observations from a re-analysis of the deposited data

How the results depend on the processing

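Of 83 values under 11 alternative settings, 65 stayed within 1.5 times the reported value and 18 moved further. With a window of 1000 bp, 17 receptors had a peak of either list (14 H3K9me3, 3 R-loop) in 8 clusters. With 10000 bp there were 200 (184 H3K9me3, 18 R-loop, 2 of them with both) in 23 clusters, and the median width of the widest R-loop peak per gene was 853.5 bp in place of 1536.5 bp. By the gene span alone, 16 receptors had a peak (14 H3K9me3, 2 R-loop). With the wider 50% of each list, 27 had one (19 H3K9me3) in 9 clusters, 6 of them in the span in place of 14, and the median width of the widest H3K9me3 peak per gene was 946 bp in place of 513.5 bp. The smaller and larger numbers follow from a narrower or wider search, or from fewer peaks. RNA polymerase II and DDX55 stayed at 0 in each setting run. For DDX55 this is near the background of 0.256% of all protein-coding genes.

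No paired analysis was possible because each list is shared by its samples and holds no value per sample; for the same reason no replicate was left out. The number of genes is thus set largely by the 3000 bp limit, and, with the depth unknown, a gene without a peak cannot be told from one below the caller's threshold.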

Other observations

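Olfactory receptor pseudogenes, outside the rule, carried the same peak types. Of 317 annotated pseudogenes with an Olfr symbol, 21 (6.62%) had an H3K9me3 peak within 3000 bp of an end, 5 of them in the span, and 5 (1.58%) had an R-loop peak. The shares of all protein-coding genes were 2.96% and 0.631%. Of the 5 with an R-loop peak, Olfr528-ps1, Olfr534-ps1, Olfr537-ps1 and Olfr540-ps1 lie in the distal chromosome 7 cluster. The fifth, Olfr241-ps1, lies on chromosome 12, beside a peak of 2799 bp. The R-loop peak fell in the span in 3 of the 5, including the 6958 bp peak of Olfr534-ps1. None of the 317 had a peak of RNA polymerase II or DDX55 at an end, beside 33.5% and 0.256% of all protein-coding genes. For DDX55 this is near the background and says little about the pseudogenes. Of the 1106 receptors, 1 had an RNA polymerase II peak at an end.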
